A study of Mus musculus with 35 samples.

Results

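The genes described here are 10 feedback inhibitors and transcriptional outputs of the RAS-MAPK pathway: the phosphatase genes *Dusp4*, *Dusp5* and *Dusp6*, the Sprouty genes *Spry1*, *Spry2* and *Spry4*, the Spred genes *Spred1* and *Spred2*, and the ETS transcription factor genes *Etv4* and *Etv5*. They were chosen by symbol among the 53465 genes of the deposited count table, where each symbol had 1 identifier, and all 10 passed the filter on low counts in every comparison (lowest count 375 in a library). RNA-seq was done on 35 libraries of mKate2+ tumor cells sorted by FACS from tumors in the pancreas and from metastases in liver or lungs, all grown from KC-shSmad4 mouse pancreatic ductal adenocarcinoma (PDAC) lines. The cells carried Ptf1a-Cre, which acts in the pancreatic lineage, the Rosa26 reporter for rtTA3 and mKate2, and in Col1a1 a doxycycline (Dox)-inducible, GFP-linked shRNA against *Smad4*, and they had been transduced with firefly luciferase. They were injected into the pancreas, the spleen or the tail vein of female Foxn1nu nude mice of 6 to 8 weeks, hosts that lack T cells. All hosts were fed Dox, which is meant to silence *Smad4* (Smad4 off), and in the groups labelled Smad4 on it was withdrawn 4 weeks (pancreas), 5 weeks (liver) or 6 weeks (lungs) after injection, with cells taken 7 or 14 days later.

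Pancreas groups held 3 libraries labelled off and 2 labelled on at day 7, then 2 off and 3 on at day 14. Liver groups held 2 off and 3 on, then 3 of each label. Lung groups held 4 off and 2 on, then 4 of each label. The study used several KC-shSmad4 lines, and the labels do not say which line gave a library, nor whether the mice of a group were handled apart, so the tests measure the spread between these libraries. *Smad4* mRNA went against the labels: it lay between 14.8 and 22.4 CPM (read counts scaled to library size with TMM factors) in the 17 libraries labelled Smad4 on, and between 69.9 and 143 CPM in the 18 labelled Smad4 off. SMAD4 protein, which the study assessed separately, was not analysed here, and the mRNA alone does not show whether labels were exchanged. Group names below follow the labels for this reason, and each change is given as labelled on over labelled off.

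ERK, the last kinase of the RAS-MAPK pathway, switches on genes that restrain it. DUSP4, DUSP5 and DUSP6 are phosphatases that remove phosphate from MAP kinases, DUSP6 in the cytoplasm and DUSP4 and DUSP5 in the nucleus. Sprouty and Spred proteins act upstream of ERK, where Spred proteins bring neurofibromin to RAS, while ETV4 and ETV5 are ETS factors that carry the signal to target genes. These genes are often used as a readout of the pathway's output in tumors.

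Library totals were 11885461 to 43571007 counts (median 19415320), and 3 counts, the floor used here, correspond to 0.0689 to 0.252 CPM, a limit that covers counting error only. All 6 markers of the tumor epithelium (*Krt8*, *Krt18*, *Krt19*, *Epcam*, *Cdh1* and *Sox9*) were detected in every library. The pancreas libraries also held markers of other cells: the 8 fibroblast markers summed to 9251 to 25348 CPM and the 6 acinar markers to 567 to 2821 CPM. In the liver and lung libraries apart from 1, the fibroblast sums were 261 to 4352 and 161 to 1994 CPM, and the acinar sums stayed under 1 CPM. The exception was the second liver library labelled Smad4 off on day 7, labelled paired-end where the others were single-end. It held 36074 CPM of fibroblast and 342 CPM of acinar markers. Whether its organ label is right was not tested, and this library is named below by that label. The called results of members that include it are given with and without it, and those of other pathway genes with it only. In sorted bulk samples, fewer cells of a type and less RNA per cell cannot be told apart. Counts of *mt-Co3* were present in 10 libraries and absent from 25, among them all 10 pancreas libraries, so values within these kinds of libraries are given for the called members.

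All members were well expressed. Per kb of transcript, the order of mean levels over the 35 libraries was *Dusp5* (111 CPM per kb), *Dusp6* (108), *Dusp4* (68.0), *Spry2* (49.0), *Etv4* (35.3), *Spry1* (23.6), *Spred2* (21.1), *Spry4* (15.8), *Spred1* (12.4) and *Etv5* (10.5). *Dusp6* lay above *Dusp4* in 35 of 35 libraries, whereas the order of *Dusp5* and *Dusp6* held in 17 of 35 and that of *Spry1* and *Spred2* in 19 of 35, so these neighbours did not differ beyond their spread. The other neighbours kept their order in 26 to 32 libraries. Among the 11912 genes with a mean above 1 on the log2 CPM scale, the members lay between the 60.0th percentile (*Etv5*) and the 96.5th (*Dusp5*) in level per kb. *Dusp5* also varied most, by 10.6-fold between the highest and the lowest library, followed by *Spry1* (7.39-fold), and *Spred2* varied least (1.69-fold). Within groups, the SD on the log2 scale was 0.57 for *Dusp5* and 0.20 for *Spred2*, beside a median of 0.28 over these genes.

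**Figure D1:**
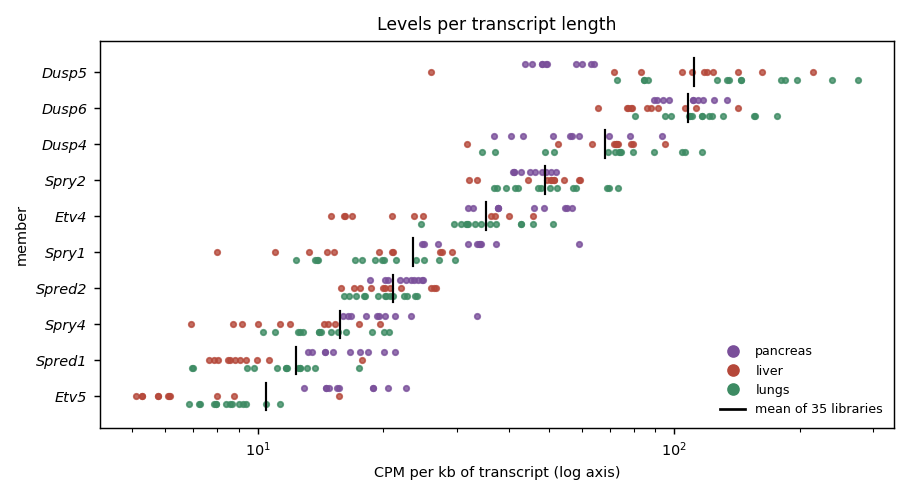
Level of each member per kb of transcript (CPM per kb, log axis), with 1 point for each of the 35 libraries, coloured by organ, and a bar at the mean. The 3 phosphatase genes and *Spry2* lead, *Etv5* is lowest, and the *Dusp5* points of the pancreas lie to the left of nearly all those of the lungs and liver.

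*Etv4* lies on chromosome 11 (GRCm38, 101769742 to 101785371, minus strand), *Etv5* on chromosome 16 (22381309 to 22439719, minus strand), *Dusp5* on chromosome 19 (53529109 to 53542431, plus strand) and *Dusp4* on chromosome 8 (34807297 to 34819894, plus strand). The first question was whether members changed with the *Smad4* label within an organ and day. In the liver on day 7, *Etv4* was lower in the libraries labelled Smad4 on, at 49.9, 50.2 and 46.6 CPM against 142 and 125 CPM in those labelled off. The groups did not overlap, and the 3 libraries labelled on lay close together. The log2 fold change was -1.53 ± 0.16 (SE; adjusted p = 0.0477, edgeR quasi-likelihood test, p adjusted over all genes by Benjamini-Hochberg), a 2.89-fold decrease, and *Etv4* was the 1 member of 10 called, that is past a 2-fold change with an adjusted p under 0.05, beside 0.444% of all genes tested. Without the paired-end library it was -1.64 (adjusted p = 0.0275), and without the other library labelled off it was -1.37 (adjusted p = 0.00530). Without any 1 of the 3 libraries labelled on, the value was -1.55 to -1.49, adjusted p = 0.131 to 0.242 and the call was lost, and 0 genes of all were called in those fits. *Etv4* differed by -1.50 on the log2 scale among the libraries without *mt-Co3* counts (2 labelled on, 1 off) and by -1.42 among those with them (1 each). Sums of tumor epithelium, hepatocyte, lung epithelium and leukocyte markers also did not overlap in this comparison and lay higher in the libraries labelled on. Tumor epithelium markers (6 genes) summed to 13796 to 15037 CPM labelled on and 3835 and 11057 CPM labelled off. Sums of fibroblast (462 to 1438 CPM labelled on, 327 and 36074 labelled off), endothelial (8.21 to 12.5, 6.54 and 75.1) and acinar markers overlapped. Hepatocyte markers (8 genes) summed to 68.2 to 145 CPM labelled on and 9.75 and 32.7 CPM labelled off, lung epithelium markers (7 genes) to 149 to 325 and 9.91 and 35.2 CPM, and leukocyte markers (6 genes) to 36.8 to 71.3 and 15.2 and 24.2 CPM. In this comparison 6 of the 8 hepatocyte and 2 of the 7 lung epithelium markers passed the filter on low counts. Over all 35 libraries, *Sftpd* lay at 7.06 CPM or more (median 79.2), while *Ager* had a median of 1.07 CPM. The lung epithelium markers *Sftpc*, *Sftpb*, *Sftpa1*, *Scgb1a1* and *Lamp3* were at 0 in 13 to 19 libraries. The lung epithelium sum can therefore rest mostly on *Sftpd*. Hepatocyte sums were also 63.2 and 186 CPM in the lung libraries labelled on at day 7. None of the markers that passed the filter was called, and the part of other cells in the *Etv4* result was not tested.

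Its relative *Etv5* was at 23.6, 21.7 and 20.9 CPM in the same libraries labelled on and at 32.7 and 64.4 CPM in those labelled off, the higher of which was the paired-end library. These groups did not overlap either, but the log2 fold change of -1.21 ± 0.31 did not pass the test (adjusted p = 0.0906). It became -0.67 without the paired-end library (adjusted p = 0.114), and -1.56 (adjusted p = 0.00465) without the other library labelled off, where it was called together with *Spred1* at -1.09 (adjusted p = 0.0230). *Spred1*, which inhibits the activation of RAF, showed the same dependence on that library, at 67.5, 53.2 and 51.8 CPM labelled on and 57.6 and 121 CPM labelled off. In that library the tumor epithelium markers summed to 3835 CPM, against 11057 CPM in the other library labelled off and 13796 to 15037 CPM in those labelled on.

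Of the remaining members, *Dusp6*, the cytoplasmic ERK phosphatase, was at 246, 242 and 287 CPM labelled on and 353 and 444 CPM labelled off in the liver on day 7 (log2 fold change -0.71, adjusted p = 0.101, and -0.56 without the paired-end library). *Spry4* was at 54.7, 51.8 and 31.8 CPM and 67.5 and 80.2 CPM (log2 fold change -0.76, adjusted p = 0.169, and -0.65 without it). In both the groups did not overlap and the test was not passed. All libraries labelled on lay below all those labelled off for 6 of the 10 members (*Dusp4*, *Dusp6*, *Spry2*, *Spry4*, *Etv4* and *Etv5*), where 21.6% of all 11912 genes compared were lower without overlap (46.1% in either direction). The median log2 fold change of the members was -0.55, beside -0.059 over all genes tested, and *Spry1* had the 1 value above 0 (0.26, adjusted p = 0.758).

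**Figure D2:**
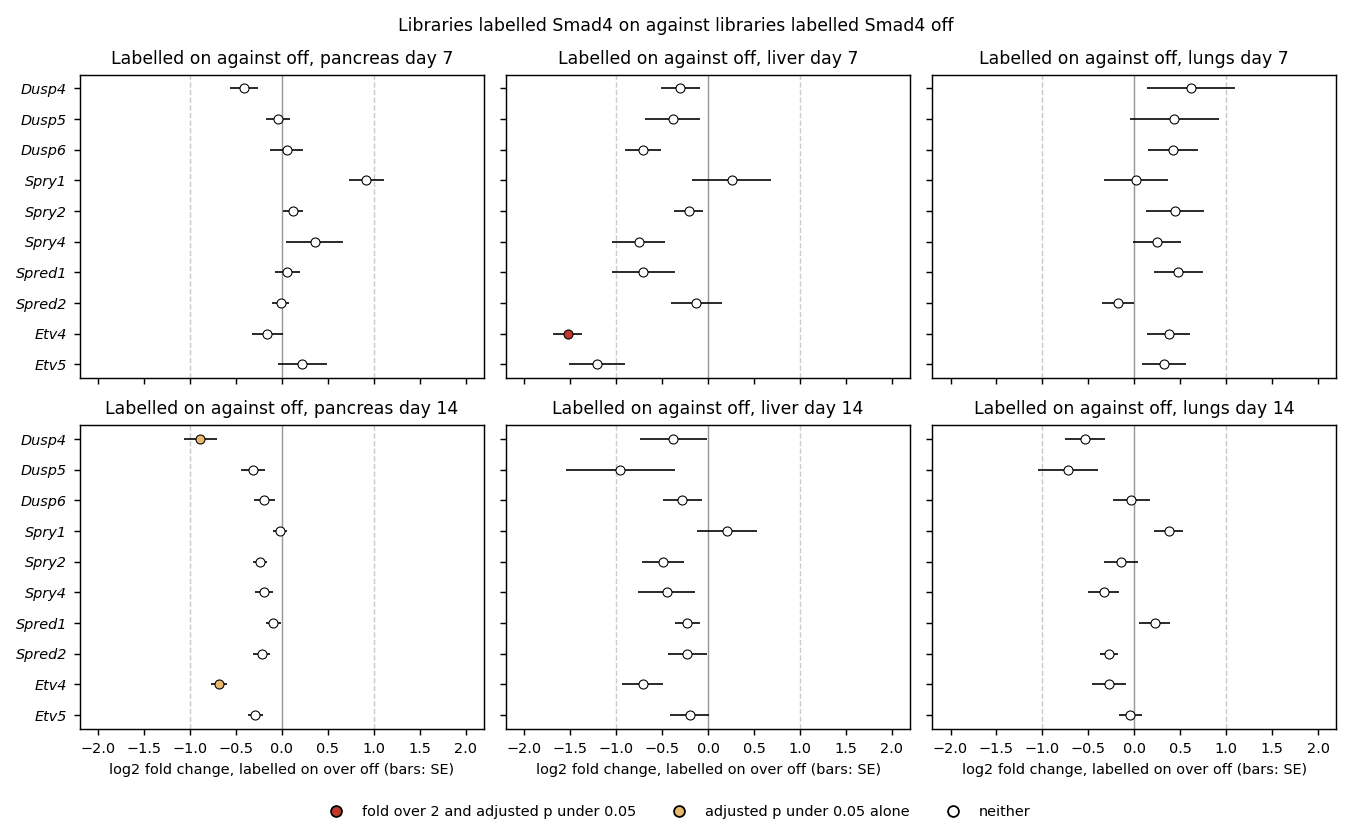
Log2 fold change of each member between libraries labelled Smad4 on and off, in each organ and on each day; points are edgeR estimates, bars are SE and dashed lines mark a fold change of 2. *Etv4* in the liver on day 7 is the 1 filled red point (-1.53), and *Dusp4* and *Etv4* in the pancreas on day 14 passed the adjusted p alone.

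In the liver on day 14, *Etv4* was at 65.3, 73.8 and 52.2 CPM labelled on and 115, 112 and 77.2 CPM labelled off. The groups did not overlap, and the log2 fold change of -0.71 ± 0.23 did not pass the test (adjusted p = 0.405). *Dusp5*, a nuclear phosphatase specific for ERK, spread widely, with 352, 177 and 64.3 CPM labelled on and 533, 297 and 273 CPM labelled off (log2 fold change -0.95 ± 0.59, adjusted p = 0.665). The third library labelled on held the lowest *Dusp5*, *Dusp4*, *Dusp6* and *Spred2* of all 35 libraries. None of the 10 members was called, beside 0% of all genes (1447 of 14947 genes had an unadjusted p under 0.05, and DESeq2 called 0 members and 2.24% of all genes). The members' median log2 fold change was -0.33, and 2 members (*Spred1* and *Etv4*) were lower without overlap, beside 7.08% of all genes (15.9% in either direction).

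In the lungs, no member was called on either day. On day 7 *Etv4* was at 98.4 and 159 CPM labelled on and 116, 99.0, 92.1 and 98.7 CPM labelled off, with overlapping groups and a log2 fold change of 0.37 ± 0.24 (adjusted p = 0.998). The members' values ran from -0.18 (*Spred2*) to 0.62 (*Dusp4*) with a median of 0.40, beside 0.0030 over all genes, and the groups overlapped for all 10, where 10.8% of all genes did not overlap. edgeR called 0% of all genes there (793 of 15193 had an unadjusted p under 0.05, and DESeq2 called 0 members and 0.664% of all genes). The second library labelled on had the highest *Dusp6* and *Spry2* of all 35 libraries (554 and 153 CPM).

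On day 14 in the lungs, *Dusp4*, a nuclear phosphatase of ERK, JNK and p38, was at 134, 141, 202 and 197 CPM labelled on and 203, 204, 319.6 and 245 CPM labelled off. The groups did not overlap, although the highest library labelled on nearly met the lowest labelled off, and the log2 fold change was -0.53 ± 0.21 (adjusted p = 0.436). *Dusp5* was at 209.5, 180.1, 357 and 357 CPM and 335, 331, 684 and 457 CPM, with overlapping groups (log2 fold change -0.72 ± 0.32, adjusted p = 0.508). Libraries with the same mouse number deviated together here, but so did differently numbered libraries of the same *mt-Co3* kind, so the number and that kind cannot be told apart. With the number as a block, *Dusp5* had an adjusted p of 0.0381 at a log2 fold change of -0.72, a fold change of 1.65. Called members numbered 0 with and without the block, beside 0.0271% of all genes without it and 0.739% with it. Without the block, 1485 of 14751 genes had an unadjusted p under 0.05, and DESeq2 called 0 members and 1.34% of all genes. For 2 members (*Dusp4* and *Spred2*) the libraries labelled on were lower without overlap, beside 3.47% of all genes (5.88% in either direction). The members' median was -0.21.

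In the pancreas on day 14, *Etv4* was at 117, 102 and 99.2 CPM labelled on and 176 and 171 CPM labelled off. *Dusp4* was at 155, 119 and 101 CPM labelled on and 214 and 256 CPM labelled off. Neither gene overlapped between the groups, and both passed the adjusted p without reaching a fold change of 2: *Etv4* with a log2 fold change of -0.69 ± 0.090 (adjusted p = 0.00325) and *Dusp4* with -0.89 ± 0.18 (adjusted p = 0.0275). Members called at both thresholds thus numbered 0, beside 4.64% of all genes. An unadjusted p under 0.05 was found for 4075 of 14234 genes, and DESeq2 called 0 members and 5.85% of all genes. On the adjusted p alone, 2 of 10 members passed, beside 12.9% of all genes. Without the first library labelled on, *Dusp4* was called at -1.08 (adjusted p = 5.29e-06), and without the second labelled on or either labelled off it no longer passed the adjusted p (-1.03 to -0.75, adjusted p = 0.0681 to 0.193). For 9 of the 10 members, the exception being *Dusp6*, all libraries labelled on lay below all those labelled off, where 27.5% of all genes were lower without overlap (49.3% in either direction). The changes were small, with a median of -0.23 beside 0.016 over all genes, and the groups also differed in depth, at 12200163 to 14255679 counts labelled on and 28557488 to 32195795 labelled off, whose part in the result was not tested. Fibroblast markers summed to 9251 to 18037 CPM labelled on and 12366 to 13099 CPM labelled off. Acinar, leukocyte and endothelial sums also overlapped. Other sums lay higher labelled on without overlap. They were those of tumor epithelium (4956 to 7090 CPM, against 3979 to 4227 labelled off), hepatocyte (29.0 to 74.2, against 20.3 to 28.3) and lung epithelium markers (31.7 to 64.9, against 19.5 to 21.3). Of single markers, 1 fibroblast and 1 hepatocyte marker were called higher and 1 acinar marker lower. The part of these cells in the result was not tested.

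In the pancreas on day 7, *Spry1*, an inhibitor of receptor signaling to RAS, was at 171 and 108 CPM labelled on and 72.9, 78.8 and 72.0 CPM labelled off. The groups did not overlap, and the log2 fold change was 0.92 ± 0.19 (adjusted p = 0.0651). Without the second library labelled on it was called at 1.21 (adjusted p = 0.0322). Fibroblast markers summed to 24107 and 25348 CPM in the libraries labelled on against 12613 to 17231 CPM in those labelled off, while acinar markers summed to 567 and 783 CPM labelled on against 1512 to 2534 CPM labelled off and leukocyte markers to 56.9 and 71.9 against 82.6 to 109 CPM, none with overlap. Their part in the result was not tested. No member was called, beside 1.33% of all genes (3340 of 14439 had an unadjusted p under 0.05, and DESeq2 called 0 members and 3.58% of all genes), and *Dusp4* was the other member without overlap (44.7% of all genes had none), at 140.5 and 111 CPM labelled on and 154, 191 and 161 CPM labelled off (log2 fold change -0.41, adjusted p = 0.169).

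**Figure D3:**
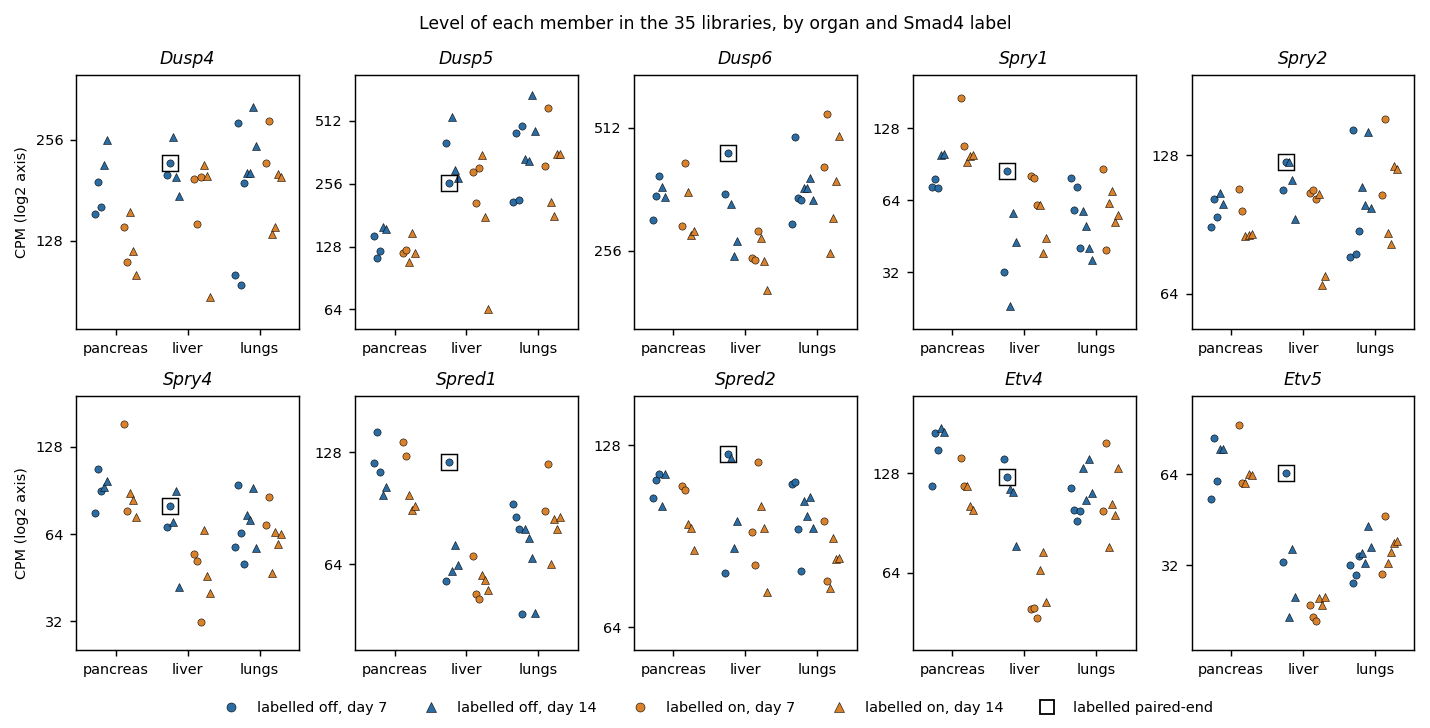
Level of each member in every library (CPM, log2 axis) by organ, with libraries labelled Smad4 off in blue, those labelled on in orange, day 7 as circles, day 14 as triangles, and a square around the paired-end library. *Etv5* is highest in the pancreas except for that library (64.4 CPM), *Dusp5* is lowest in the pancreas but for 1 liver library (64.3 CPM), and the liver libraries labelled on have the lowest *Etv4*.

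Whether the response to the label differed between metastatic sites was asked with an organ-by-label interaction term. On day 7, *Etv4* was lower with the label on in the liver (-1.53) and had a value of 0.37 in the lungs, and the difference of liver minus lung response was -1.84 ± 0.29 on the log2 scale (adjusted p = 0.0372). *Etv4* was the 1 member called, beside 1.86% of all genes. Among libraries without *mt-Co3* counts its label difference was -1.50 in the liver and -0.050 in the lungs, and among those with them -1.42 and 0.68, so the lung value differed between the kinds. *Etv5* (-1.46 ± 0.38, adjusted p = 0.0691), *Spred1* (-1.11, adjusted p = 0.192) and *Dusp6* (-1.05, adjusted p = 0.116) did not pass. The call rested on single libraries: leaving out the paired-end library gave *Etv4* -1.97 with an adjusted p of 0.0641, and it was also lost without any 1 liver library labelled on, without lung libraries 1, 2 or 3 labelled off, or without the second lung library labelled on (-1.96 to -1.41, adjusted p = 0.0643 to 0.114). On day 14 the *Etv4* difference was -0.43 ± 0.30 (adjusted p = 1.00), and 0 members and 0% of all genes were called (478 of 15869 genes had an unadjusted p under 0.05, and DESeq2 called 0 members and 0.0253% of all genes).

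The organs were then compared within each label, with the day as a covariate. The comparisons of liver and lungs with the pancreas share the pancreas libraries, so they are not independent of each other. *Dusp5* was higher at both metastatic sites. In libraries labelled Smad4 off it lay at 113 to 159 CPM (median 143, n = 5) in the pancreas, 258 to 533 CPM (median 297, n = 5) in the liver and 209 to 684 CPM (median 391, n = 8) in the lungs. The pancreas did not overlap either site. The log2 fold change was 1.26 ± 0.29 for liver over pancreas (adjusted p = 0.0110) and 1.42 ± 0.27 for lungs over pancreas (adjusted p = 0.000885), both called. Without the paired-end library the liver value was 1.36 (adjusted p = 0.00259). In libraries labelled Smad4 on, *Dusp5* lay at 108 to 148 CPM (median 119, n = 5) in the pancreas, 64.3 to 352 CPM (median 249, n = 6) in the liver and 180.1 to 590.0 CPM (median 335, n = 6) in the lungs. Lungs and pancreas again did not overlap (1.41 ± 0.34, adjusted p = 0.00657), whereas 1 liver library lay below the pancreas and the liver value of 0.82 ± 0.34 did not pass (adjusted p = 0.0661). Without that liver library, the third labelled on at day 14, it was called at 1.03 (adjusted p = 0.00745).

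*Etv5* went the other way. Labelled off, it lay at 53.0 to 84.2 CPM (median 77.6, n = 5) in the pancreas, 21.7 to 64.4 CPM (median 32.7, n = 5) in the liver and 28.0 to 43.0 CPM (median 33.5, n = 8) in the lungs. The lungs did not overlap the pancreas, and in the liver only the paired-end library reached into its range. The log2 fold change was -1.02 ± 0.24 for liver over pancreas (adjusted p = 0.0115) and -1.11 ± 0.21 for lungs over pancreas (adjusted p = 0.000828), both called. The liver value sat at the fold threshold: it was -1.33 without the paired-end library, and -0.98 to -0.84, no longer past a fold change of 2, without any 1 of 10 other libraries of the fit. The lung value fell under that threshold without either pancreas library of day 14 (-0.996 (adjusted p = 0.00554) and -0.99 (adjusted p = 0.00535)). Labelled on, *Etv5* lay at 59.7 to 93.0 CPM (median 63.6, n = 5) in the pancreas, 20.9 to 25.1 CPM (median 23.6, n = 6) in the liver and 29.8 to 46.5 CPM (median 36.7, n = 6) in the lungs, with no overlap between any pair of organs. It was -1.57 ± 0.13 in liver over pancreas (adjusted p = 7.92e-07, called), -0.89 ± 0.13 in lungs over pancreas (adjusted p = 0.000198, fold change 1.85) and -0.68 ± 0.13 in liver over lungs (adjusted p = 0.00185, fold change 1.603).

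*Etv4* was lowest in the liver where the label was on. It lay at 99.2 to 143 CPM (median 117, n = 5) in the pancreas, 46.6 to 73.8 CPM (median 51.2, n = 6) in the liver and 76.7 to 159 CPM (median 101, n = 6) in the lungs. The liver lay below both other organs with no overlap. The log2 fold change was -1.06 ± 0.18 for liver over pancreas (adjusted p = 0.000172, called) and -0.998 ± 0.17 for liver over lungs (adjusted p = 0.000974), the latter just short of a fold change of 2. The liver over pancreas value was -0.97 (adjusted p = 0.00110), under a fold change of 2, without the first pancreas library labelled on at day 7. Lungs over pancreas was -0.060 ± 0.18 (adjusted p = 0.824). Labelled off, *Etv4* lay at 117 to 176 CPM (median 169.7, n = 5), 77.2 to 142 CPM (median 115, n = 5) and 92.1 to 142 CPM (median 109, n = 8) in pancreas, liver and lungs, with log2 fold changes of -0.50 for liver (adjusted p = 0.0504) and -0.55 for lungs (adjusted p = 0.00886) over pancreas. The difference of organ effects between the labels was tested for liver and lungs only, as the interaction above.

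**Figure D4:**
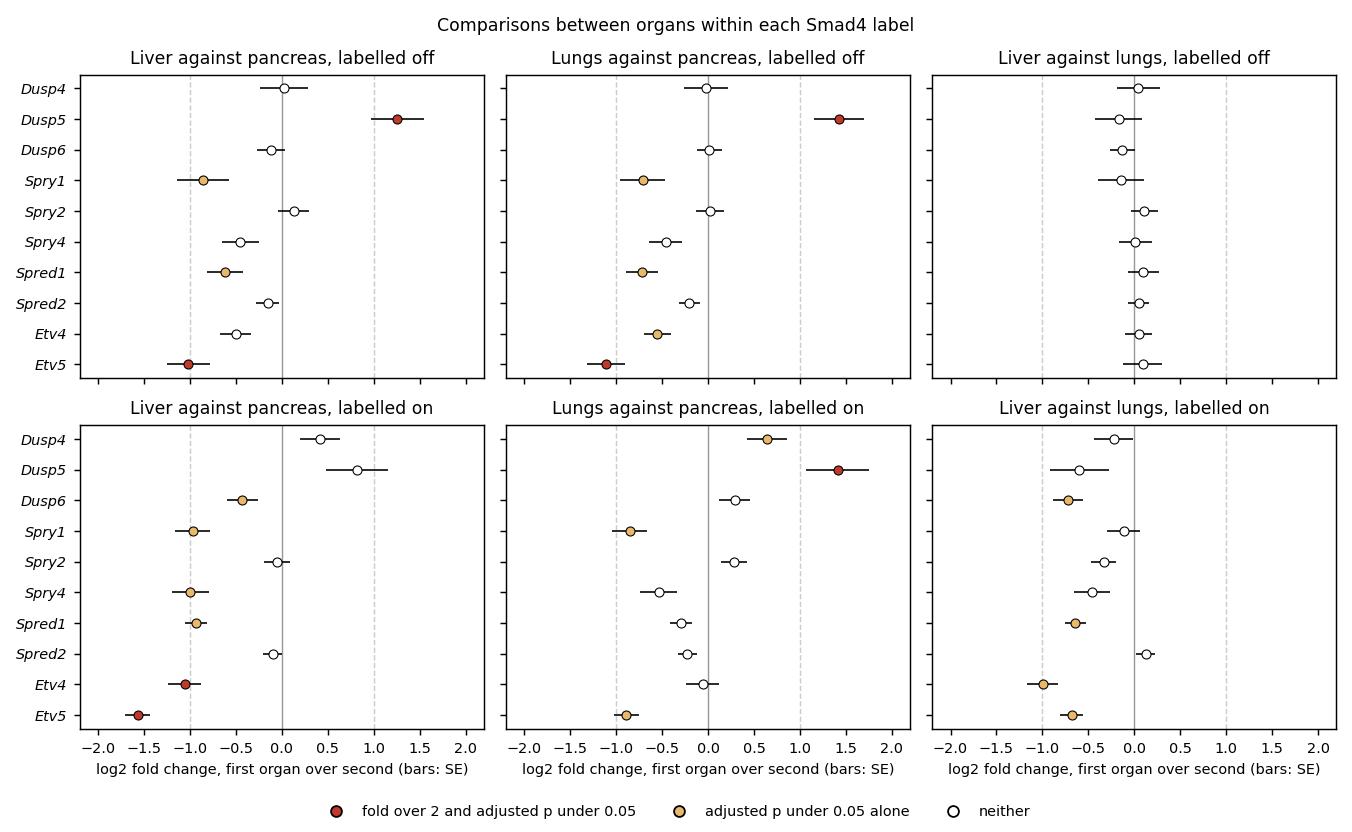
Log2 fold change of each member between organs within libraries labelled Smad4 off (top) and on (bottom); points are edgeR estimates with the day as a covariate, bars are SE and dashed lines mark a fold change of 2. *Dusp5* lies to the right and *Etv5* to the left in the comparisons with the pancreas, and between liver and lungs labelled off all members lie within 0.17 of 0.

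Among the Sprouty and Spred genes, *Spry1* was lower at the metastatic sites. Labelled on, it lay at 92.8 to 171 CPM (median 98.8, n = 5) in the pancreas, 38.5 to 80.4 CPM (median 61.2, n = 6) in the liver and 39.8 to 86.3 CPM (median 59.1, n = 6) in the lungs, with no overlap of the pancreas with either site. The log2 fold change was -0.97 ± 0.19 for liver (adjusted p = 0.000563) and -0.86 ± 0.19 for lungs (adjusted p = 0.00328), under a fold change of 2. *Spry4* was at 73.3 to 154 CPM (median 83.6, n = 5) in the pancreas and 31.8 to 66.1 CPM (median 48.9, n = 6) in the liver, again with no overlap, and its log2 fold change of -0.998 ± 0.20 (adjusted p = 0.000821) lay just under the fold threshold. *Spred1* was at 89.4 to 136 CPM (median 98.3, n = 5) in the pancreas and 51.8 to 67.5 CPM (median 56.3, n = 6) in the liver, without overlap (log2 fold change -0.94 ± 0.12, adjusted p = 1.67e-05). Labelled off, *Spred1* passed the adjusted p in liver (-0.62, adjusted p = 0.0394) and lungs (-0.72, adjusted p = 0.00396) over pancreas, as did *Spry1* (-0.86, adjusted p = 0.0472, and -0.71, adjusted p = 0.0341). Without the paired-end library the liver values were -0.80 for *Spred1* (adjusted p = 0.00570) and -1.12 for *Spry1* (adjusted p = 0.00592), which was then called, beside 15.3% of all genes in place of 8.68%. *Spry2* and *Spred2* passed in none of the 6 organ comparisons, with log2 fold changes of -0.33 to 0.28 and -0.23 to 0.12.

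Neither *Dusp4* nor *Dusp6* was called between organs. *Dusp4* had values of 0.020 and -0.024 in liver and lungs over pancreas labelled off, the latter of the other sign with DESeq2's size factors (0.026), and labelled on it was higher in lungs over pancreas (0.64 ± 0.22, adjusted p = 0.0405, fold change 1.56). *Dusp6* labelled on lay at 205 to 287 CPM (median 244, n = 6) in the liver and 252 to 554 CPM (median 394, n = 6) in the lungs, with overlapping groups and a log2 fold change of -0.72 ± 0.16 (adjusted p = 0.00540). *Spred1* passed in the same comparison (-0.64 ± 0.11, adjusted p = 0.00138).

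Called members thus numbered 2 of 10 in liver over pancreas labelled off (8.68% of all genes were called) and 2 in lungs over pancreas labelled off (18.4%). They numbered 2 in liver over pancreas labelled on (22.2%) and 1 in lungs over pancreas labelled on (13.6%). In liver over lungs they numbered 0 labelled off (3.95%) and 0 labelled on (10.3%). Labelled off, 3582 of 16606 genes had an unadjusted p under 0.05 there, and DESeq2 called 0 members and 6.21% of all genes. Labelled on, DESeq2 called 1 member, *Etv4* at -1.02, and 12.2% of all genes. On the adjusted p alone, 4, 5, 6 and 4 members passed in the comparisons with the pancreas in the same order (15.0%, 34.4%, 40.6% and 27.5% of all genes), 0 in liver over lungs labelled off (5.76%) and 4 labelled on (20.2%). The members whose libraries did not overlap numbered 1, 3, 5, 3, 0 and 2, in the order of liver and lungs over pancreas labelled off, the same labelled on, and liver over lungs labelled off and on, beside 7.74%, 23.5%, 31.7%, 17.1%, 1.62% and 7.45% of all genes in either direction. The member of the first comparison was higher (4.47% of all genes), and those of liver over pancreas labelled on (15.0%) and liver over lungs labelled on (3.16%) were all lower. The median log2 fold changes of the members were -0.30, -0.33, -0.68, -0.14, 0.045 and -0.53 in that same order, with those of all genes between -0.0067 and 0.041.

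Markers of several cell types moved with the organ in these comparisons, and their part in the results was not tested. Beside the fibroblast and acinar sums given above, 4 of 6 tumor epithelium markers were called higher in liver and 4 in lungs over pancreas labelled off (median log2 fold changes 1.41 and 1.17), and 5 and 2 labelled on (1.503 and 0.67). All 7 lung epithelium markers were higher in lungs over pancreas with either label, at medians of 9.48 and 10.48. Of 7 hepatocyte markers tested, 3 and 4 were higher in liver over pancreas labelled off and on, and 3 and 2 in lungs over pancreas. Of 6 leukocyte markers, 2 were lower in liver and 3 in lungs over pancreas labelled off. Labelled on, 2 were lower and 1 higher at each site. Of 5 endothelial markers, 3 and 4 were higher in lungs over pancreas labelled off and on, and 3 and 2 were lower in liver over pancreas. In the paired-end liver library, which had them as well, *Etv5* was at 64.4 CPM, within the pancreas range and above the 20.9 to 36.1 CPM of the other 10 liver libraries, whereas its *Dusp5* of 258 CPM lay above the pancreas range. Among libraries without *mt-Co3* counts alone, the *Dusp5* differences from the pancreas were 1.54 (liver) and 1.10 (lungs) labelled off, and 0.89 in the lungs labelled on, the last a smaller difference than over all libraries (means of log2 CPM). *Etv5* differed by -1.24 and -1.15 labelled off and by -1.52 in the liver labelled on, and *Etv4* there by -0.96. For liver minus lungs labelled off, some members differed in opposite directions between the *mt-Co3* kinds. *Dusp5* had 0.44 without these counts and -1.01 with them, and *Spry1* had -0.85 and 0.63, whereas *Etv5* stayed near 0 (-0.093 and 0.086).

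**Figure D5:**
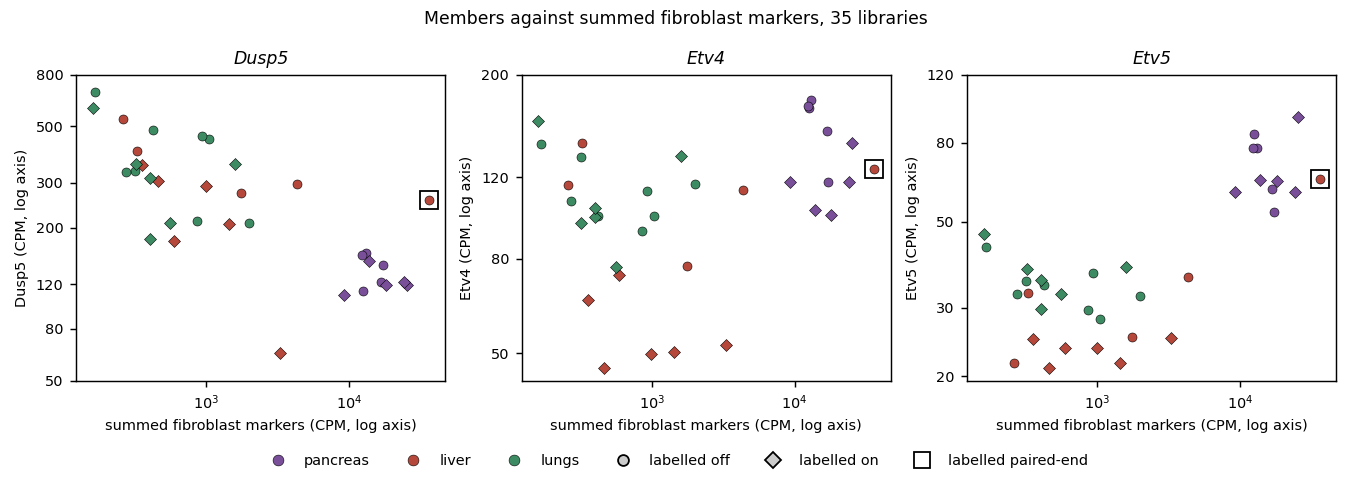
Level of *Dusp5*, *Etv4* and *Etv5* (CPM, log axis) against the sum of 8 fibroblast markers (CPM, log axis) in the 35 libraries, coloured by organ, with circles for libraries labelled Smad4 off, diamonds for on and a square around the paired-end liver library. That library lies to the right of all pancreas libraries, with *Etv5* at their level and *Dusp5* above it.

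The promoters of the pair that differed in opposite directions between the pancreas and the metastatic sites are shown for comparison. Both are the 250 bases before a RefSeq transcription start in GRCm38.p6, where 7 of the 10 members matched the table of promoters and *Dusp4*, *Spry4* and *Etv4* did not. The *Dusp5* sequence is chr19:53528895-53529144 on the plus strand and the *Etv5* sequence, for the first of its 2 starts, chr16:22439571-22439820 on the minus strand. Capitals mark CArG boxes, the binding motif of serum response factor, a motif looked for after the *Dusp5* sequence had been seen.
Dusp5: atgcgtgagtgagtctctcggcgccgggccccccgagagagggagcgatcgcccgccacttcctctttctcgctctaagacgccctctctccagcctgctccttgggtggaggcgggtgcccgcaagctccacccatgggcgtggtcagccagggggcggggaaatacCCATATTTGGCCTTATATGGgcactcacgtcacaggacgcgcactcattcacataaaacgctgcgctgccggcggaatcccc
Etv5: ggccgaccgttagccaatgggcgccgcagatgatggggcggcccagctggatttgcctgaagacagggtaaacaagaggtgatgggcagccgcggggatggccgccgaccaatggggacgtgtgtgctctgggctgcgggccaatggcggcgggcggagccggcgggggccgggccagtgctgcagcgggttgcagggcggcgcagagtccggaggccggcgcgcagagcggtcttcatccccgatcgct
The *Dusp5* promoter held 2 CArG boxes, starting 82 and 72 bases before the start site, directly next to each other and without overlap with another motif searched, and the other member promoters held none. Of all 32851 promoters in the table, 1.47% held at least 1. An ETS site in a longer form (CCGGAA), an AP-1 site (TGANTCA) and a SMAD site (CAGAC) were searched on both strands and matched in 0 of the 8 promoters of the members, beside 12%, 6.75% and 42.2% of all promoters. The shorter ETS core and shorter forms of the SMAD site were not searched. The 0 matches therefore do not show that ETS or SMAD sites were absent. These matches describe letters in a window, not binding.

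Days 7 and 14 were compared within each organ, with the label as a covariate. In the pancreas, *Spred1* was lower on day 14, at 98.4 and 103 CPM labelled off and 98.3, 89.4 and 91.5 CPM labelled on, against 119.7, 145 and 113 and 136 and 125 CPM on day 7. The days did not overlap within either label, and the log2 fold change was -0.40 ± 0.080 (adjusted p = 0.0122, fold change 1.32), the 1 member to pass the adjusted p alone, beside 11.4% of all genes. No member was called at both thresholds in the pancreas (0.735% of all genes), the liver (0%) or the lungs (0%). An unadjusted p under 0.05 was found for 4190 of 15093, 425 of 16913 and 771 of 16220 genes in that order. DESeq2 called 0 members in each organ, beside 0.763%, 0.0544% and 0.0185% of all genes. The largest value of any member was that of *Spry1* in the liver (-0.56 ± 0.26, adjusted p = 1.00).

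Other genes of the pathway were followed by 3 lists. Of 22 genes for adaptors, RAS, RAF, MEK and ERK, *Rps6ka1* was called in 5 comparisons. It encodes the ERK-activated kinase RSK1 and was higher labelled on in the pancreas on day 14 (1.02, adjusted p = 0.00179), and at both metastatic sites over the pancreas with either label (1.54 and 1.91 off, 1.94 and 1.10 on).

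Of 12 tested relatives and other feedback inhibitors, 1 was higher and 0 lower in liver over pancreas labelled off, 1 and 2 in lungs over pancreas labelled off, 1 and 3 in liver over pancreas labelled on, and 2 and 2 in lungs over pancreas labelled on. The shares of all genes called higher and lower were, in that order, 5.25% and 3.43%, 10.8% and 7.58%, 10.8% and 11.4%, and 6.42% and 7.13%. *Rasal1*, a RAS GTPase-activating protein, was higher in liver and lungs over pancreas labelled off (2.42 and 3.58) and on (2.65 and 2.46). *Etv1*, the third gene of the ETV4 and ETV5 group, was lower in lungs over pancreas with either label (-2.55 off and -2.51 on) and in liver over pancreas labelled on (-2.21). *Spred3* was lower in liver over pancreas (-2.49) and over lungs (-1.76) labelled on, and its response on day 7 was lower in the liver than in the lungs (-2.67, adjusted p = 0.0372). Between the labels, *Rasal1* was higher (2.07, adjusted p = 0.00303) and *Dusp9* lower (-1.23, adjusted p = 0.0153) labelled on in the pancreas on day 14.

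Of 12 other outputs of ERK, 5 were higher and 0 lower in liver over pancreas with either label, beside 5.25% (off) and 10.8% (on) of all genes called higher. In lungs over pancreas labelled off and on, 3 and 4 were higher, with 0 lower, beside 10.8% and 6.42% of all genes called higher. The called genes of this list included *Epha4*, a receptor kinase, higher in liver (1.89) and lungs (2.04) over pancreas labelled off and in liver labelled on (1.13). *Areg*, which encodes the EGFR ligand amphiregulin (1.605), and *Plaur*, the urokinase receptor (1.13), were higher in liver over pancreas labelled off. *Epha2* and *Fosl1* were the other 2 called there, named after their values were seen. The list's median log2 fold changes in these 4 comparisons, in the order liver and lungs labelled off and then on, were 0.58, 0.79, 0.89 and 0.84. *Dusp5* was the member with called values of that sign, and the members' own medians were below 0. In liver over lungs labelled on, *Ier3* (-1.12) and *Lif* (-1.23) were lower. Between the labels, 1 gene of this list changed, *Epha4*, higher labelled on in the pancreas on day 7 (1.02, adjusted p = 0.0482) and day 14 (1.53, adjusted p = 0.00280), and no other gene of the 3 lists was called between the labels beside those named above.

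The members did not vary as a single unit. Over the 35 libraries, which differ in organ, label and depth, Pearson's r between members (log2 CPM, 45 pairs) had a median of 0.32 and ranged from -0.63 to 0.79. After the group means were taken out the median was 0.31, with 10 pairs over 0.5. The highest were *Dusp4* with *Dusp5* (0.81) and *Dusp4* with *Spry2* (0.74), and the lowest was *Dusp5* with *Spry1* (-0.47). *Spry1* had values of -0.47 to -0.28 with the 3 phosphatase genes, and *Spry2* had 0.67 to 0.74 with them. The 5 other genes whose log2 CPM followed the members' mean z-score most closely, of 11902 searched, were *Gfod1* (r = 0.87), *Runx1* (0.84), *Nrip1* (0.84), *Ets1* (0.84) and *Myo10* (0.83).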

How the data were processed

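Counts per gene for 35 poly(A)-selected, strand-marking TruSeq libraries were deposited as whole numbers without normalization. Per the labels and methods, the authors trimmed reads with Trimmomatic 0.36, aligned them to GRCm38 (mm10) with STAR 2.5.3a and counted with featureCounts 1.6.3 (FastQC 0.11.5); the strand setting of the counting was not given in the sources used here. Opposite-strand genes over *Spry1* and *Spry4* held at most 0.221% of a member's counts. The deposited transcript lengths, another column of the table, gave the levels per kb.

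Each comparison was fitted over all genes with edgeR 4.0.16 in R 4.3.3 (filterByExpr, minimum count 10 and minimum total 15, TMM, robust glmQLFit, glmQLFTest) and called past a 2-fold change with an adjusted p (Benjamini-Hochberg) under 0.05, the thresholds of the study, which used DESeq2. Labels were compared within organ and day, organs within label with the day as covariate, days with the label as covariate, and responses by an interaction. CPM are TMM-scaled. Alternatives were DESeq2 1.42.0, its size factors, other filters, no fold threshold, a block for the mouse number, all 12 groups in 1 fit, a covariate for *mt-Co3* counts, and leaving out libraries. The edgeR and DESeq2 steps were tested on simulated data. The mouse number met the rule for pairing libraries only in the lungs on day 14, where same-numbered libraries deviated together in all 4 pairs (r = 0.38 to 0.58), by a threshold of 0.1 set for each pair. Differently numbered libraries of the same *mt-Co3* kind did so as strongly (r = 0.34 to 0.65), so this does not show pairing by mouse. No 2 libraries held identical counts.

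The members and the lists of pathway genes and cell markers were chosen with earlier results of these data known, so no count over them is independent evidence. The text names all members, called pathway genes (up to 4 per comparison by lowest p, with their values in other comparisons where called) and the 5 genes most like the members' mean. One item of the cells' genotype and 1 gene of the pathway lists are not reported here.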

Additional observations from a re-analysis of the deposited data

Results flagged for a closer look

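The response of *Etv4* to the *Smad4* label was called different between the metastatic sites on day 7. The difference of liver minus lung response was -1.84 on the log2 scale by the edgeR interaction test (adjusted p = 0.0372). This call rested on single libraries. It was lost without any single liver library labelled on, and without 3 of the 4 lung libraries labelled off, each left out singly. It also depended on the paired-end liver library and on a lung library labelled on, as given above. With the mouse number as a block, a fit of 8 libraries, 0 members and 0% of all genes were called. Since no gene passed in that fit, it cannot decide on the *Etv4* call. In the liver the 3 libraries labelled on lay below the 2 labelled off (-1.53), and in the lungs the groups overlapped (0.37). In the 3 lung groups of 4 libraries, the only groups large enough for Dixon's criterion, no library stood apart for any of the 10 members (30 tests). The liver and pancreas groups and the lung group labelled on at day 7 (2 libraries) were not tested.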

How the results depend on the processing

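No member value that was called changed its direction under any alternative, and of 170 member values 59 had the opposite sign under at least 1, the largest of them 0.44 from 0 on the log2 scale. The number of members called held within 1.5 times in 115 of 139 pairs of a comparison and a setting. In most comparisons the main count was 0, so many of these pairs set 0 against 0. With DESeq2 the number of members called was 2 for the label in the liver on day 7 (1 with edgeR), 1 for liver over pancreas labelled off (2), 1 for liver over lungs labelled on (0) and 3 for the liver against the lung response on day 7 (1). Of all genes, DESeq2 called 17.8%, 11.7%, 12.2% and 11.6% in that order. With DESeq2 size factors in edgeR, 1 member was called in each of those organ comparisons, beside 8.63% and 10.3% of all genes. With at least 10 counts in every library it was also 1 in each, beside 6.58% and 7.77%. With no filter it was 1 for liver over pancreas labelled off, beside 3.52%. The single fit of the 12 groups gave 2, 1, 1 and 4 in the order of the DESeq2 values. For the first 2 of these it called 17.6% and 9.52% of all genes. The replicate block gave 0 for the liver on day 7 (0% of all genes), 1 for liver over pancreas labelled off (2.39%) and 0 for the response on day 7 (0%). It changed no other count of members. Without the paired-end library, the response on day 7 had 0. Without the fold threshold the counts were 2 for the pancreas on day 14, 4 and 5 for liver and lungs over pancreas labelled off, 6 and 4 labelled on, 4 for liver over lungs labelled on and 1 for the days in the pancreas.

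Leaving out 1 library at a time gave 0 to 1 members in the pancreas on day 7 and on day 14, 0 to 3 in the liver on day 7, 1 to 3 and 1 to 2 for liver and lungs over pancreas labelled off, 1 to 4 for liver over pancreas labelled on, 0 to 1 for liver over lungs labelled on and 0 to 3 for the response on day 7. The share of all genes called moved more: in the liver on day 7 from 0.444% to 17.8% with DESeq2, 17.6% in the single fit, 6.38% with the *mt-Co3* covariate, 4.98% without the paired-end library and 0% with the block. In the pancreas on day 14 it was 0.0912% in the single fit against 4.64%, and for the response on day 7 it was 11.6% with DESeq2 and 0.0288% without the paired-end library against 1.86%. For liver over pancreas labelled off it was 15.3% without the paired-end library and 2.39% with the block against 8.68%. The cause was not tested. Groups of 2 to 4 libraries limit the size of change that can be detected.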
